A study of Homo sapiens with 12 samples.

Results

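U937 cells, a human leukaemia line of monocytic character, were exposed for 24 h to EX527, and their transcripts were set against those of control cells. All groups grew in RPMI medium with 2 mM glutamine and antibiotics, and 4 EX527, 4 MC2494 and 4 control arrays make up the series. The comparison described here uses the 8 arrays of EX527 and control, of 12 in all, over the 13174 of 24526 probes that were detected (detection p under 0.05) on at least 4 of the 12 arrays. The labels give no dose for EX527 or MC2494, name no vehicle for the control cells, and leave it unstated whether replicate arrays stand for independent cultures. The p-values therefore describe variation from array to array, part or all of which could be technical.

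EX527, also called selisistat, is a carboxamide that inhibits SIRT1 selectively among the sirtuins. SIRT1 is a deacetylase that spends NAD to remove acetyl groups from histones and from transcription factors and coactivators, among them p53, PGC-1alpha, FOXO proteins and the RelA subunit of NF-kappaB. Its known reach therefore covers fat and mitochondrial metabolism, inflammation, cell division and stress responses. MC2494 is the other compound of the series, introduced there as a sirtuin inhibitor, and served as a second point of reference.

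Raw mean signal was 711, 721, 783 and 730 on the EX527 arrays and 793, 791, 764 and 770 on the control arrays. The groups overlapped, and the mean of 736.2 ± 32.3 in EX527 and 779.3 ± 14.5 in control (SD, n = 4 arrays each) gave an exact permutation p of 0.0857, 2-sided, where 0.0286 is the smallest that 4 against 4 can give. Median raw signal was 89 in EX527 and 88.7 in control. Of the 14 markers of monocytic identity listed, 12 were measured, while for other cell types 4 of 15 lymphocyte, 2 of 15 erythroid or megakaryocyte and 2 of 14 epithelial or fibroblast genes were measured. Values below are normalized signals on the log2 scale, a difference is EX527 minus control in log2 units with its standard error, and each gene is represented by its brightest kept probe.

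EX527 moved many genes by a little and few genes by a lot. Of the 13174 kept probes 7160 passed an adjusted p of 0.05, which is 54.3%, and on 49.7% of them the groups did not overlap. Of 9956 genes, 5573 passed an adjusted p of 0.05 (limma, Benjamini-Hochberg over all probes tested), which is 56% of them, with 25.6% higher and 30.4% lower in EX527. The median difference was 0.45 among genes called higher and -0.35 among genes called lower. A change of at least 2-fold was found for 202 genes that were higher and 45 that were lower, and 8 genes (7 higher, 1 lower) changed at least 4-fold. Genes that only some arrays of a group detected count there at their measured fold, which the background limits. The 4 EX527 arrays did not overlap with the 4 control arrays for 5136 genes, 51.6% of those tested. Counts of called genes in a list are to be read against these shares. In RNA from whole cultures, fewer cells of a state and less RNA per cell cannot be told apart.

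**Figure D1:**
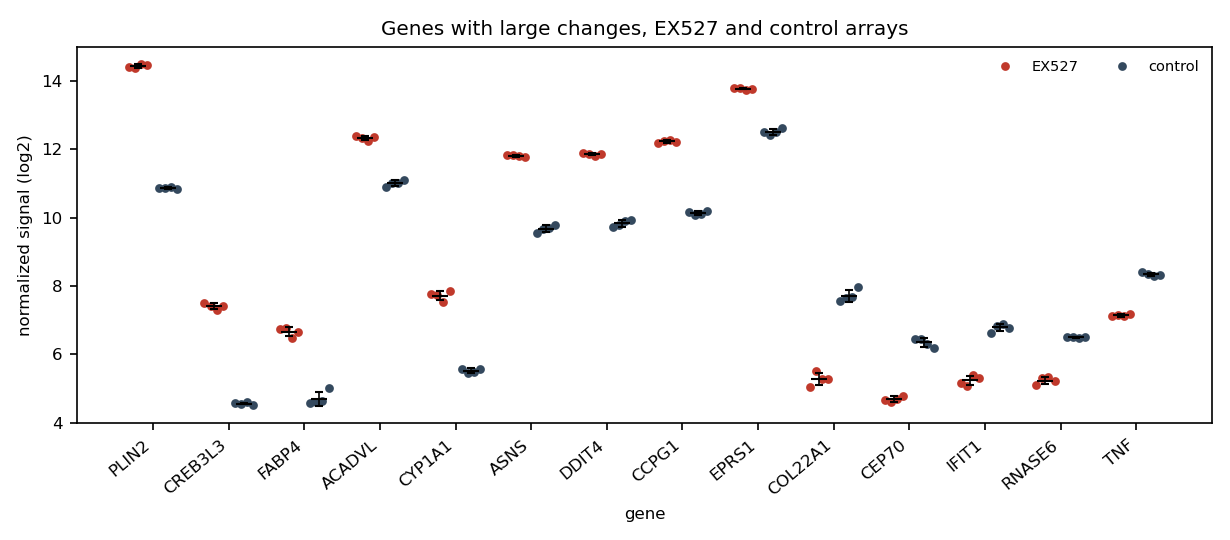
Normalized signal (log2, vertical axis) of 14 genes with large changes on each EX527 array (red, left of each pair) and each control array (blue-grey), with group means and SD as black bars. In each of the 14 genes the 4 EX527 arrays lie wholly above or wholly below the 4 control arrays. This was a condition for naming many of them, and it holds for 51.6% of all genes. PLIN2 stands at 14.37 to 14.48 in EX527 against 10.84 to 10.90 in control.

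The list with the highest share of rises was the amino acid response. This response is run by the transcription factor ATF4, whose translation increases when uncharged tRNA or unfolded protein activates an eIF2alpha kinase, and it is known to raise asparagine and serine synthesis, amino acid import and tRNA charging. Of 18 measured regulators and effectors 15 rose and 0 fell, with a median difference of 0.91, against -0.04 over all genes. The 3 others were CHAC1, a glutathione-degrading enzyme (-0.24 ± 0.12), the bZIP factor CEBPB (0.04 ± 0.05) and the AP-1 repressor JDP2 (0.30 ± 0.14).

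ATF4 itself stood at 13.93, 14.21, 14.20 and 14.11 on the EX527 arrays and at 13.72, 13.73, 13.66 and 13.74 on the control arrays, a small rise without overlap (0.40 ± 0.07, adjusted p = 0.0002). That call was lost when arrays were scaled by their medians (0.16, adjusted p = 0.086). Another kept probe of ATF4, detected on all arrays, rose by 0.59 without overlap (adjusted p = 0.00041, limma). The remaining kept probe, detected on 1 EX527 and 0 control arrays, did not pass (0.16 ± 0.12, adjusted p = 0.25). DDIT3, which encodes CHOP, a partner of ATF4, was at 9.84, 9.88, 9.91 and 9.99 in EX527 and at 8.53, 8.37, 8.51 and 8.44 in control. It was 2.72-fold higher (adjusted p = 7.7e-10).

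DDIT4, an inhibitor of the growth kinase complex mTORC1, had 11.87, 11.85, 11.81 and 11.86 in EX527 and 9.71, 9.77, 9.91 and 9.93 in control, 4.04-fold higher. SESN2, a leucine sensor that also restrains mTORC1, was 2.18-fold higher. CCPG1, a receptor for the autophagic removal of endoplasmic reticulum, was 4.28-fold higher, with 12.18 to 12.28 in EX527 and 10.06 to 10.19 in control. The pseudokinase TRIB3 (1.01 ± 0.07), the C/EBP factor CEBPG (0.99 ± 0.07), the phosphatase subunit PPP1R15A (0.83 ± 0.06) and ATF3 (0.76 ± 0.05) rose by less. NUPR1, a stress-induced nuclear protein, was 3.35-fold higher, and the angiogenic factor VEGFA was 2.10-fold higher. GDF15, a secreted stress cytokine, was at 7.03, 7.16, 7.06 and 6.75 in EX527 and at 5.18, 5.08, 4.98 and 5.25 in control, where 2 of 4 arrays detected it, so its 3.67-fold rise is 3.5-fold with the undetected arrays set to the lowest detected signal.

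Enzymes that make amino acids and one-carbon units followed, with 10 of 17 measured higher, 4 lower and a median of 0.50. Asparagine synthetase, ASNS, stood at 11.84, 11.82, 11.80 and 11.78 on the EX527 arrays and at 9.54, 9.67, 9.68 and 9.79 on the control arrays. It was 4.40-fold higher (adjusted p = 3.9e-11), the largest rise of that list. CTH, which makes cysteine from cystathionine, was 3.33-fold higher, the branched-chain aminotransferase BCAT1 was 3.11-fold higher and the serine pathway enzyme PSAT1 was 3.06-fold higher. PHGDH, the entry enzyme of serine synthesis (0.93 ± 0.05), and the mitochondrial folate enzymes MTHFD2 (0.70 ± 0.06) and SHMT2 (0.57 ± 0.05) rose by smaller amounts. Glutamine synthetase, GLUL, fell by 0.50, though its other kept probe did not pass (-0.13 ± 0.12, adjusted p = 0.37), and the cytosolic folate enzyme MTHFD1 fell by 0.32.

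Of 22 measured amino acid transporters 9 rose and 4 fell, with a median of 0.02, so the rise was not general. SLC38A2, an importer of small neutral amino acids, had 9.89, 10.04, 10.14 and 9.79 in EX527 and 8.99, 8.61, 8.58 and 8.74 in control (1.24 ± 0.10). SLC7A11, the cystine carrier, was detected on 4 EX527 arrays and on 0 control arrays, and was at least 1.73-fold higher (adjusted p = 9.3e-08). Its heavy chain partner SLC3A2 (0.53 ± 0.07) and the glutamine carrier SLC38A1 (0.98 ± 0.07) also rose, while SLC43A2, a facilitated carrier of large neutral amino acids, fell by 0.83.

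The aminoacyl-tRNA synthetases, which load amino acids onto tRNA, divided by compartment. Of 19 measured cytosolic enzymes 12 rose and 3 fell, with a median of 0.50. Of 15 measured mitochondrial enzymes 1 rose and 6 fell, with a median of -0.10. EPRS1, which charges both glutamate and proline tRNAs, was at 13.78, 13.78, 13.74 and 13.76 in EX527 and at 12.49, 12.40, 12.50 and 12.63 in control, 2.39-fold higher. WARS1 (0.97 ± 0.05), GARS1 (0.90 ± 0.05), TARS1 (0.84 ± 0.10) and AARS1 (0.82 ± 0.05) came next. The cytosolic enzymes that fell were FARSA (-0.52 ± 0.06), KARS1 (-0.28 ± 0.05) and HARS1 (-0.23 ± 0.05), and RARS2 (0.32 ± 0.06) was the mitochondrial one that rose. KARS1, which fell, and GARS1, which rose, each serve both compartments.

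The ATF4 composite element is a short DNA word read by ATF4 with a C/EBP partner, and it was searched as TGATGNAA on both strands, from 250 bases before to 50 bases after each gene's start in RefSeq (GRCh38.p14). It occurs in 3.62% of 35116 promoters and in 1.84% of the 8311 promoters that belong to measured genes. Among cytosolic synthetases that rose, 6 of 10 with a promoter hold it, and 0 of 3 that fell and 0 of 3 that did not pass hold it. It is in 0 of 13 mitochondrial synthetases with a promoter. Among amino acid and one-carbon enzymes that rose, 4 of 9 hold it, against 0 of 3 that fell. Among the regulators it is in 1 of 13 that rose (ATF3) and in CHAC1, which did not pass. Windows of 30 bases around these words are shown because they mark which of the induced genes carry the letters. They were picked after the values were known, the capitals mark the match, and TTGCATCA is the same word on the other strand.
ASNS: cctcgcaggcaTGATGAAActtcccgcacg
BCAT1: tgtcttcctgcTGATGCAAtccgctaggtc
GOT1: aattgcattggTTGCATCAttctcggcagc
MTHFD1L: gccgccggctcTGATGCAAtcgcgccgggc
AARS1: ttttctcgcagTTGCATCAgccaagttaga
CARS1: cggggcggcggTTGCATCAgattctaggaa
IARS1: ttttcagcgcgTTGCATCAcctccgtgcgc
MARS1: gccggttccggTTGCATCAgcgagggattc
NARS1: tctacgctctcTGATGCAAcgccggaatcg
TARS1: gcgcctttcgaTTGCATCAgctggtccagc
ATF3: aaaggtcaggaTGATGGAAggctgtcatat
CHAC1: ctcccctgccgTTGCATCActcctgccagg
Each window is given 5′ to 3′ on the strand of its gene.

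The ASNS window lies at chr7:97872458-97872487 on the minus strand, with the word 68 bases before the start, and the BCAT1 window at chr12:24949131-24949160 (minus), 48 bases before it. The AARS1 word (chr16:70289675-70289704, minus) begins 187 bases before the start, and the words of CARS1 (chr11:3057407-3057436, minus), MARS1 (chr12:57488053-57488082, plus) and IARS1 (chr9:92293692-92293721, minus) begin 2, 4 and 13 bases before it. The NARS1 (chr18:57621804-57621833, minus) and TARS1 (chr5:33440956-33440985, plus) words lie just inside the transcribed part. The GOT1 (chr10:99430804-99430833, minus), MTHFD1L (chr6:150866346-150866375, plus) and ATF3 (chr1:212565205-212565234, plus) words begin 198, 129 and 191 bases before the start, and that of CHAC1 (chr15:40953251-40953280, plus) begins 209 bases before it. Of these carriers, MARS1 (0.80 ± 0.06), IARS1 (0.67 ± 0.06), NARS1 (0.61 ± 0.05), CARS1 (0.50 ± 0.06), GOT1 (0.50 ± 0.05) and MTHFD1L (0.24 ± 0.06) rose. The MTHFD1L call was lost with median scaling (0.11, adjusted p = 0.16) and without scaling (0.18, adjusted p = 0.083). EPRS1 and WARS1, the synthetases that rose most, do not have these letters in their window. A match is a description of the letters and no measure of ATF4 binding, which these arrays do not record.

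Chaperones did not move with the amino acid response. Of 25 measured genes of the endoplasmic reticulum and its unfolded protein response 9 rose and 7 fell, with a median of 0.10 that became -0.04 with median scaling. HSPA5, the chief chaperone of that compartment, was at 10.67, 10.76, 10.72 and 10.73 in EX527 and at 11.03, 10.96, 11.00 and 11.04 in control, lower without overlap (-0.29 ± 0.05). SDF2L1 fell by 0.65 and MANF, a secreted survival factor, fell by 0.56, whereas HSP90B1 rose (0.43 ± 0.06). Among 28 measured heat shock and DNAJ chaperones 13 fell and 5 rose (16 and 3 with median scaling), led by the co-chaperones BAG3 (-0.71 ± 0.07), STIP1 (-0.63 ± 0.06) and DNAJB6 (-0.54 ± 0.05), with HSPA13 (0.94 ± 0.13) the largest rise.

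The largest change of all was in a lipid gene. PLIN2, which coats lipid droplets and is a known target of the fatty acid receptors of the PPAR family, stood at 14.40, 14.37, 14.48 and 14.47 on the EX527 arrays and at 10.85, 10.88, 10.90 and 10.84 on the control arrays. It was 11.8-fold higher (3.56 ± 0.06, adjusted p = 4.4e-14). CREB3L3, a membrane-bound factor of fasting metabolism best known from liver, was at 7.51, 7.41, 7.28 and 7.42 in EX527 and at 4.57, 4.55, 4.59 and 4.53 in control, where no array detected it, so it was at least 4.68-fold higher (adjusted p = 1.5e-10). FABP4, a fatty acid carrier of adipocytes and macrophages, had 6.74, 6.77, 6.49 and 6.66 in EX527 and 4.58, 4.60, 4.62 and 5.01 in control, likewise undetected there, and was at least 2.80-fold higher (adjusted p = 4.1e-09). These 3 genes are among the 12 largest rises, a rule that required non-overlapping groups.

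Over the whole list of PPAR targets 14 of 23 measured rose and 3 fell, with a median of 0.57. Of 24 measured fatty acid oxidation enzymes, several of them on both lists, 15 rose and 3 fell, with a median of 0.28. ACADVL, which starts mitochondrial oxidation of very long chains, was at 12.39, 12.33, 12.24 and 12.36 in EX527 and at 10.90, 11.00, 11.02 and 11.11 in control, 2.50-fold higher (adjusted p = 1.1e-09). ECH1, a dienoyl-CoA isomerase, was 1.94-fold higher, the carnitine carrier SLC25A20 was 1.83-fold higher, the thiolase ACAA2 was 1.70-fold higher and CPT1A, the gate of fatty acid entry into mitochondria, was 1.54-fold higher. Another kept probe of CPT1A rose by 0.25 in log2 units, with overlapping groups (adjusted p = 0.016, limma). CD36, the scavenger receptor that takes up fatty acids and oxidised lipoprotein, was at 10.61, 10.70, 10.65 and 10.58 in EX527 and at 9.97, 9.95, 9.86 and 9.96 in control (0.70 ± 0.05). TXNIP, which restrains glucose uptake, fell by 0.45.

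Of the receptors themselves PPARG rose (0.93 ± 0.05, with 0.34 on another probe that 1 EX527 and 0 control arrays detected), with 10.43 to 10.46 in EX527 and 9.47 to 9.57 in control. PPARA (0.05 ± 0.08, detected on 4 EX527 and 2 control arrays) and PPARD (0.08 ± 0.06) did not pass. PPARGC1A, which encodes the coactivator PGC-1alpha, a substrate of SIRT1, was at 8.22, 8.10, 8.23 and 8.17 in EX527 and at 6.96, 6.81, 6.87 and 6.95 in control, 2.44-fold higher. Lipid droplet genes as a list did not rise: of 21 measured, PLIN2 included, 4 rose and 8 fell, or 6 and 5 without scaling. Among the falls were the lipolysis cofactor ABHD5 (-0.47 ± 0.10) and CIDEB (-0.44 ± 0.12).

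Of 20 measured genes of cholesterol synthesis and uptake 9 rose (45%, against 25.6% of all genes) and 5 fell (25%, against 30.4%), with a median of 0.10. SC5D, a late desaturase of the pathway (1.05 ± 0.07), HMGCS1 (0.64 ± 0.07) and the retention protein INSIG2 (0.68 ± 0.07) rose, while INSIG1, a sterol-responsive member of the same family, was at 8.75, 8.70, 8.66 and 8.55 in EX527 and at 9.20, 9.22, 9.47 and 9.39 in control (-0.66 ± 0.07). Of 15 measured genes of fatty acid synthesis 4 rose and 2 fell, and ACACB, whose product malonyl-CoA inhibits CPT1, rose most (0.89 ± 0.08).

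CYP1A1, a monooxygenase that is the classic target of the aryl hydrocarbon receptor (AhR), stood at 7.77, 7.73, 7.53 and 7.84 on the EX527 arrays and at 5.58, 5.45, 5.48 and 5.57 on the control arrays. It was 4.58-fold higher (adjusted p = 1.5e-10). TIPARP, a receptor target that feeds back on it, was at 9.34, 9.30, 9.42 and 9.32 in EX527 and at 8.24, 8.29, 8.45 and 8.54 in control (0.96 ± 0.08), and NQO1, a quinone reductase also driven by NRF2, rose as well (0.48 ± 0.07). AHR itself did not pass (0.09 ± 0.11). Thus 3 of the 5 measured members of the battery rose and 0 fell.

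The receptor's core word GCGTG is short and common, being in 50.7% of measured genes' promoters, and it is in the windows of all 5 measured members. The 120 bases before the CYP1A1 start (chr15:74725529-74725648, minus strand, GRCh38.p14) hold 1 copy, in capitals, 57 bases before the start. They are shown as the proximal promoter of the gene that leads this group, and the distant enhancers known for CYP1A1 lie outside them.
CYP1A1: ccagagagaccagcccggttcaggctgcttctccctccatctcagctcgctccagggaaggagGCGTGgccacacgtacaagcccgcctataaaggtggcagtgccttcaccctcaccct

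Among genes of the antioxidant factor NRF2 and of glutathione, 8 of 23 measured rose and 5 fell, with a median of 0.09 that became -0.09 with median scaling and -0.01 without scaling. HMOX1, the haem-degrading oxygenase, was at 8.61, 8.67, 8.71 and 8.73 in EX527 and at 7.28, 7.44, 7.18 and 7.45 in control, 2.54-fold higher. GCLM, a subunit of the enzyme that limits glutathione synthesis (0.74 ± 0.09), and NFE2L2, the gene of NRF2 itself (0.75 ± 0.07), rose, and KEAP1, which marks NRF2 for destruction, fell by 0.42. Of 17 measured iron genes 7 rose and 3 fell (median 0.15), and with median scaling 5 rose and 6 fell (median -0.01). The transferrin receptor TFRC was 2.08-fold higher, with 13.34 to 13.49 in EX527 and 12.33 to 12.43 in control, and the iron exporter SLC40A1 fell by 0.49.

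Of 27 measured genes of the mTORC1 pathway 8 rose and 2 fell, a share of rises near that of all genes, and with median scaling 6 rose and 7 fell. Besides DDIT4 and SESN2 the largest rise was that of the S6 kinase gene RPS6KB1 (1.01 ± 0.06), at 10.03 to 10.10 in EX527 against 8.95 to 9.18 in control.

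**Figure D2:**
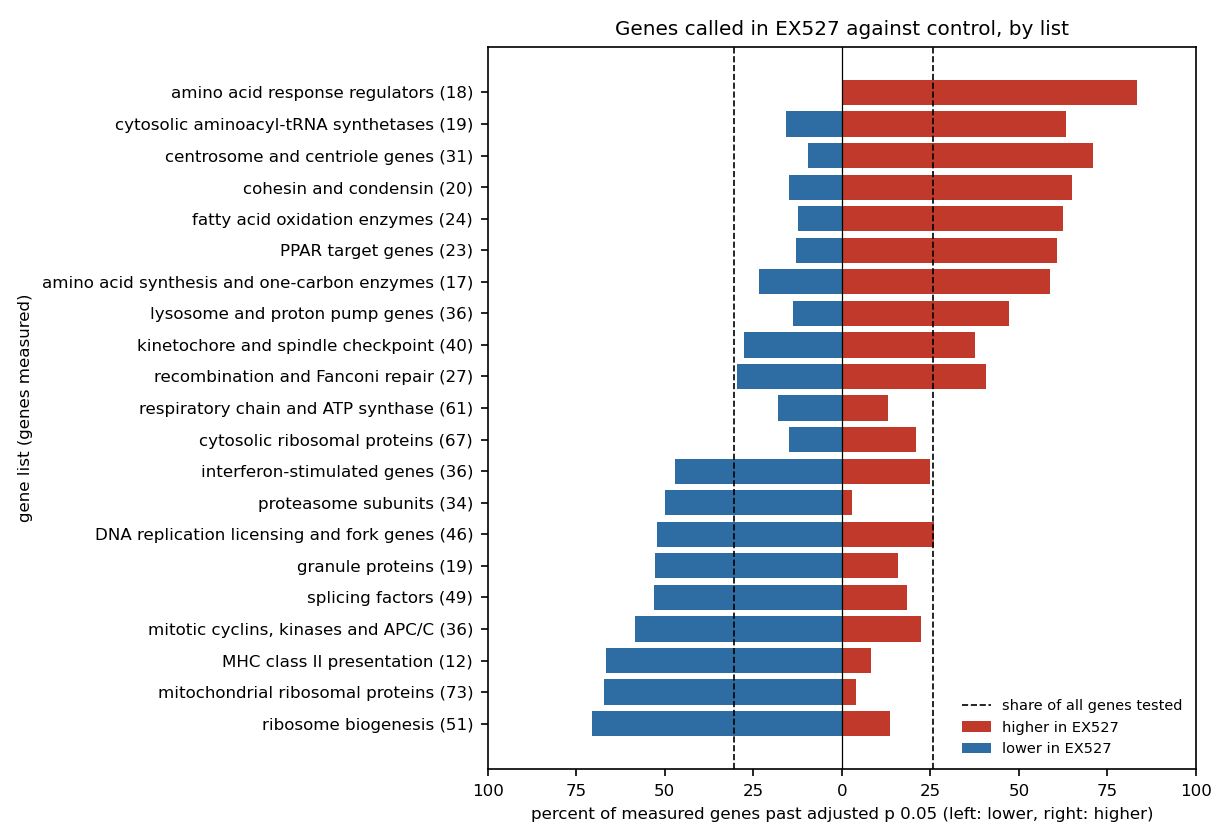
Percent of the measured genes of 21 lists that passed adjusted p 0.05 in EX527 against control, higher to the right in red and lower to the left in blue, with the number of genes measured in brackets and dashed lines at the shares over all genes tested (25.6% higher, 30.4% lower). Amino acid response regulators (15 of 18 higher) and centrosome genes (22 of 31 higher) lie at one end and ribosome biogenesis (36 of 51 lower) and the mitochondrial ribosome (49 of 73 lower) at the other.

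Cell division genes split by machinery. Genes that license and run DNA replication were mostly lower: 24 of 46 measured fell and 12 rose, with a median of -0.18 (-0.29 with median scaling). MCM2, a subunit of the replicative helicase, was at 10.65, 10.65, 10.72 and 10.80 in EX527 and at 11.35, 11.46, 11.54 and 11.46 in control (-0.75 ± 0.06, adjusted p = 3e-07). The helicase partner GINS2 (-0.69 ± 0.06), the origin subunit ORC1 (-0.62 ± 0.09) and MCM5 (-0.60 ± 0.05) fell alongside. The replisome anchor WDHD1 (0.87 ± 0.07, with 0.23 on its other probe), the clamp loader subunit RFC1 (0.79 ± 0.06) and ORC3 (0.71 ± 0.05) rose, so members of one complex moved in opposite directions. A word of the S-phase factors E2F, TTTNGCGC, is in 3.36% of measured genes' promoters. It is in 9 of 20 with a promoter among the replication genes that fell, in 3 of 12 that rose and in 2 of 9 that did not pass.

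Of 26 measured nucleotide supply genes 10 fell and 3 rose (20 and 2 with median scaling), the falls led by the nucleotide-cleansing enzyme DCTPP1 (-0.77 ± 0.06) and the pyrimidine enzyme DHODH (-0.64 ± 0.11), and the rises by RRM2B, a stress-induced reductase subunit (0.94 ± 0.17). Of 26 measured regulators of the passage into S phase 7 rose and 9 fell, shares near those of all genes. The phosphatase CDC25A (-0.76 ± 0.06) and cyclin E1, CCNE1 (-0.60 ± 0.05), were lower. CDKN1A, which encodes the kinase inhibitor p21, was at 10.03, 10.09, 9.87 and 9.97 in EX527 and at 8.83, 9.13, 8.88 and 9.07 in control, 2.02-fold higher, with 0.37 in log2 units on its other probe. CDKN1B, which encodes p27, rose too (0.63 ± 0.09).

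Mitotic cyclins, kinases and subunits of the anaphase-promoting complex were lower in 21 of 36 cases and higher in 8, with a median of -0.21. PLK1, a master kinase of mitosis, was at 9.17, 9.18, 8.99 and 9.05 in EX527 and at 9.86, 9.77, 9.69 and 9.67 in control (-0.65 ± 0.07). CDC20, the activator of the complex, fell by 0.56 and CDCA3 fell by 0.51. The hyaluronan-binding spindle protein HMMR, at 10.92 to 11.14 in EX527 and 9.70 to 9.85 in control, was 2.45-fold higher and the topoisomerase TOP2A was 1.97-fold higher, the 2 largest of the 8 rises. With median scaling 25 of the list were lower and 4 higher (median -0.34).

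Kinetochore genes divided about evenly, 15 of 40 higher and 11 lower. SPC25, an outer kinetochore subunit, was at 7.01, 6.86, 6.91 and 7.03 in EX527 and at 7.93, 8.05, 7.96 and 8.14 in control, 2.09-fold lower. INCENP (-0.59 ± 0.07) and survivin, BIRC5 (-0.56 ± 0.07), which belong to the chromosomal passenger complex, fell as well. The centromere genes CENPQ (1.31 ± 0.10), CENPK (1.28 ± 0.08) and CENPU (1.02 ± 0.06) and the mitotic motor CENPE (0.96 ± 0.08) rose, with CENPK at 9.81 to 10.11 in EX527 and 8.54 to 8.83 in control.

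Cohesin and condensin genes, which hold and fold chromosomes, rose in 13 of 20 cases and fell in 3, with a median of 0.59. SMC4, a condensin core subunit, was at 11.90, 11.86, 11.80 and 11.86 in EX527 and at 10.67, 10.61, 10.47 and 10.55 in control, 2.43-fold higher (adjusted p = 7.6e-09). SMC2 (1.23 ± 0.07) rose with it, while the condensin subunit NCAPD2 fell by 0.41. SMC6 (1.21 ± 0.07), counted in this list though a subunit of neither complex, rose too. Centrosome and centriole genes rose in 22 of 31 cases and fell in 3, with a median of 0.64. PCM1, the scaffold of centriolar satellites, was at 12.31, 12.36, 12.27 and 12.29 in EX527 and at 10.93, 10.80, 10.77 and 10.90 in control, 2.75-fold higher (adjusted p = 1.3e-09). CEP57 was 2.66-fold, CEP152 2.29-fold and CEP135 2.14-fold higher, all of them structural proteins of the centriole or its surroundings.

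CEP70 ran against its family. It had 4.67, 4.59, 4.70 and 4.79 in EX527, where no array detected it, and 6.46, 6.44, 6.29 and 6.19 in control, and was at least 2.26-fold lower (adjusted p = 1.1e-09). The gamma-tubulin gene TUBG1, at -0.20 ± 0.08 on its brightest probe, passed narrowly (adjusted p = 0.045), with overlapping groups. That probe lost the call without EX527 replicate 2, 3 or 4 and without control replicate 2, 3 or 4 (-0.20 to -0.17, adjusted p = 0.076 to 0.12). The other kept probe of TUBG1 fell by 0.33 without overlap (adjusted p = 4.0e-05, limma). Of 27 measured recombination and Fanconi repair genes 11 rose and 8 fell (median 0.00). The break sensor RAD50 (1.51 ± 0.08) and the damage kinase ATM (1.15 ± 0.06) rose most with RAD51AP1 (1.11 ± 0.09), and XRCC3 fell by 0.58. ATM was at 9.86, 9.82, 9.87 and 9.84 in EX527 and at 8.74, 8.62, 8.79 and 8.65 in control.

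**Figure D3:**
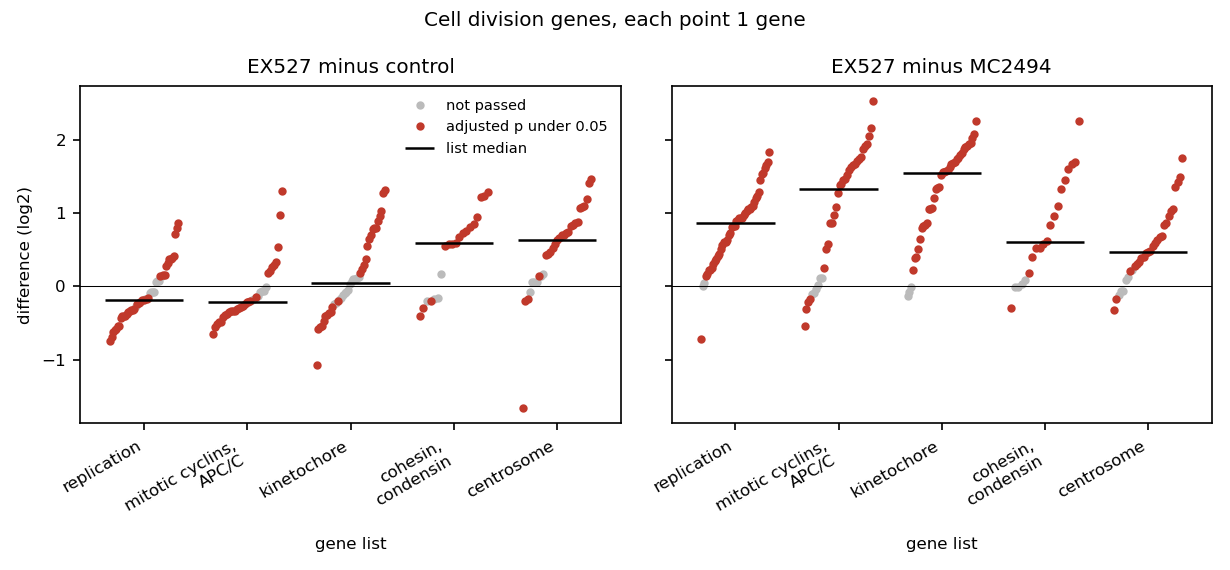
Difference in log2 signal of each measured gene of 5 cell division lists, ordered by size within a list, for EX527 minus control (left) and EX527 minus MC2494 (right), with red points past adjusted p 0.05, grey points not passed and black lines at list medians. Against control the medians run from -0.21 in mitotic cyclins to 0.64 in centrosome genes, and against MC2494 all 5 lie above 0.

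Long genes were on balance higher and short genes lower. Genes were divided into 4 bins of equal size by their genomic span in RefSeq (GRCh38.p14), which was known for 99.9% of them. In the bin spanning up to 11.6 kb the median difference was -0.13, with 13% of genes higher and 41.7% lower. It was -0.06 and 0.01 in the next bins, and 0.06 in the bin above 66.1 kb, where 36.3% were higher and 20.3% lower. The order of the 4 medians was the same with median scaling (-0.20 to 0.02), without scaling (-0.13 to 0.09) and in the authors' deposited log2 values (-0.10 to 0.05). Against MC2494 the medians were -0.04, -0.04, -0.00 and -0.01. Bins by GC content of the promoter showed no such order (-0.02, -0.03, -0.02 and -0.06).

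Among the lists, centrosome genes have a median span of 79 kb and cohesin and condensin genes 50.9 kb, whereas mitochondrial ribosomal proteins have 8.62 kb and granule proteins 5.85 kb. Amino acid response regulators, with a median span of 7.62 kb, rose all the same. Regulators of the PPAR, RXR and PGC1 group have the longest median span, 103.7 kb, with a median difference of 0.07. Histone and DNA methylation genes (64 kb) had -0.12, and cytosolic ribosomal proteins (5.04 kb) had 0.06. The part of gene span in the result for any list was not tested.

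**Figure D4:**
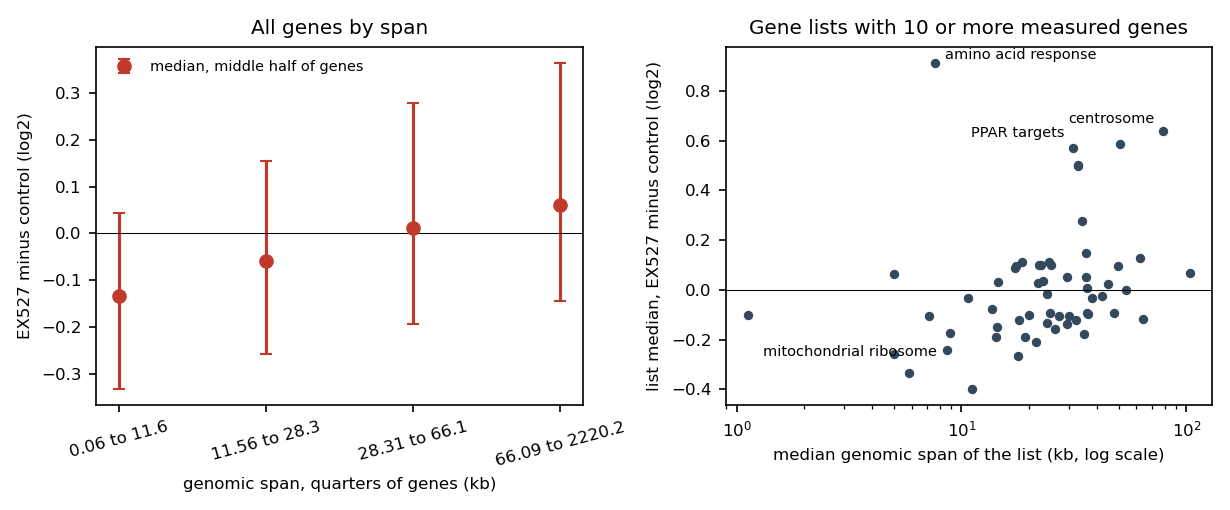
Left, median (point) and quartiles (bars) of the difference EX527 minus control in log2 signal for 4 equal bins of genes by genomic span in kb. Right, the median difference of each list with 10 or more measured genes against the list's median span (log axis), where the amino acid response stands highest at a short span and centrosome genes stand at a long one.

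Transcripts of ribosome assembly genes and of mitochondrial ribosomal protein genes were mostly lower. Among 51 genes of ribosome assembly the median difference was -0.27, with 36 lower and 7 higher. The pre-rRNA processing genes RRP9 (-0.66 ± 0.08) and NOP16 (-0.62 ± 0.08) fell most, RRP9 standing at 7.59, 7.81, 7.71 and 7.61 in EX527 and at 8.23, 8.48, 8.40 and 8.25 in control. NOP58, a core protein of box C/D particles, and NOC3L rose by 0.79 each. Mitochondrial ribosomal proteins fell in 49 of 73 cases and rose in 3, with a median of -0.24 (-0.40 with median scaling). MRPL52 was at 8.79, 8.89, 8.77 and 8.68 in EX527 and at 9.69, 9.78, 9.43 and 9.57 in control (-0.84 ± 0.09), MRPL54 fell by 0.61, and MRPL42 (0.40 ± 0.06) was the largest rise.

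By contrast, of 67 measured cytosolic ribosomal proteins 14 rose, 10 fell and 43 did not pass, and their median of 0.06 turned to -0.13 with median scaling and -0.06 without scaling, so no direction is given. Of 61 measured genes of the respiratory chain and ATP synthase 42 did not pass, with 8 higher and 11 lower and a median of -0.03, though 42 were called lower with median scaling. Splicing factors fell in 26 of 49 cases and rose in 9, with a median of -0.19 (-0.32 with median scaling), among them the Sm protein gene SNRPD3 (-0.54 ± 0.07), while CLK4, a kinase that phosphorylates splicing factors, was 2.06-fold higher. Proteasome subunits fell in 17 of 34 cases and rose in 1, with a median of -0.15, and with median scaling 27 fell and 0 rose (median -0.33). The regulatory subunit PSMD3 (-0.60 ± 0.10) and the nuclear activator PSME3 (-0.50 ± 0.06) fell most, and the single rise, PSMA4 (0.17 ± 0.06), turned to -0.02 with median scaling and lost its call without EX527 replicate 1, 2 or 3 or control replicate 3 or 4 (adjusted p = 0.057 to 0.12).

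Among interferon-stimulated genes, which cells switch on against viruses, falls were more frequent than over all genes. Of 36 measured 17 fell (47.2%, against 30.4% of all genes) and 9 rose (25%, against 25.6%), with a median of -0.19. IFIT1, an RNA-binding antiviral protein, was at 5.16, 5.08, 5.41 and 5.30 in EX527 and at 6.63, 6.83, 6.89 and 6.78 in control. It was detected on 2 of the 4 EX527 arrays and was 2.93-fold lower, or 2.85-fold with undetected arrays at the lowest detected signal (adjusted p = 1.5e-08). IFIT2, with 1 EX527 array detecting it, was 3.04-fold lower (2.86-fold in that way), and IFIT3, detected on all arrays, fell by 0.96. The ligase TRIM22 (-0.76 ± 0.10, detected on 2 EX527 arrays), the RNA sensor OAS1 (-0.69 ± 0.10, with -0.23 on another probe that did not pass) and the ubiquitin-like ISG15 (-0.65 ± 0.09) fell as well.

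The 4 largest rises of the list were those of IFI16, SAMD9, XAF1 and IFIH1. IFI16, a nuclear DNA sensor, was at 9.04, 9.09, 9.18 and 9.25 in EX527 and at 8.08, 7.99, 8.07 and 7.99 in control, 2.15-fold higher. SAMD9 was 2.09-fold higher, IFIH1, the RNA sensor MDA5, was 1.74-fold higher, and XAF1, undetected in control, was at least 1.68-fold higher. The interferon response element, a repeat of GAAA with 2 free bases between the copies, was searched on both strands and is in 2.83% of measured genes' promoters, in 7 of 12 with a promoter among the list's members that fell and in 5 of 9 that rose, so both directions hold it. The 120 bases before the IFIT1 start (chr10:89392503-89392622, plus strand, GRCh38.p14) are shown because they carry the element 2 times, in capitals, on the opposite strand, 116 and 103 bases before the start.
IFIT1: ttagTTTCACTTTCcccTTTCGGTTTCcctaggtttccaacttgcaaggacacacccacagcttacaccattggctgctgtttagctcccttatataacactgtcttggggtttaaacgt

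Transcripts of genes for antigen presentation by MHC class II were mostly lower. The median of 12 measured genes was -0.40, with 8 lower and 1 higher, and -0.23 in the authors' deposited log2 values. HLA-DRA was at 11.33, 11.29, 11.38 and 11.41 in EX527 and at 11.88, 11.90, 11.84 and 11.84 in control (-0.51 ± 0.05). The peptide editors HLA-DMB (-0.74 ± 0.06) and HLA-DMA (-0.58 ± 0.06) and the beta chain gene HLA-DRB1 (-0.66 ± 0.07) fell too, the last with near-identical copies that its probe may share. The master activator CIITA was faint, detected on 1 EX527 and 3 control arrays (-0.29 ± 0.09), and the invariant chain CD74 (-0.16 ± 0.07) did not pass.

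Granule proteins of myeloid cells fell in 10 of 19 cases and rose in 3, with a median of -0.33 that became -0.19 with offset 50 and -0.14 with replicates 3 and 4 alone. The ribonuclease RNASE6 was at 5.09, 5.30, 5.33 and 5.21 in EX527, detected on 3 arrays, and at 6.52, 6.49, 6.48 and 6.50 in control, 2.40-fold lower. Proteinase 3, PRTN3, was at 10.21 to 10.28 in EX527 and 11.14 to 11.37 in control, 2.02-fold lower, and the ribonuclease RNASE2 was 1.76-fold lower. Lysozyme, LYZ, fell by 0.57, while complement factor D, CFD, rose (0.43 ± 0.09).

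Of 38 measured surface receptors of monocytes 14 were higher (36.8%, against 25.6% of all genes) and 15 lower (39.5%, against 30.4%). CSF1R, the receptor for the macrophage growth factor, was at 8.09, 8.04, 8.09 and 8.19 in EX527 and at 9.08, 9.05, 9.14 and 9.24 in control, 2.03-fold lower. The integrin subunit ITGAM (-0.86 ± 0.09), the medium-chain fatty acid receptor GPR84 (-1.51 ± 0.07) and the formyl peptide receptor FPR2 (-0.85 ± 0.11) fell with it. The complement receptor C5AR1 was at 7.21, 7.17, 7.33 and 7.14 in EX527 and at 5.50, 5.44, 5.96 and 5.58 in control, 3.01-fold higher. OSCAR, a collagen receptor of osteoclasts and monocytes, was 2.51-fold higher. The costimulatory ligand CD86, detected on 1 control array, was 2.05-fold higher on its brightest probe, a fold that the background limits. Another kept probe of CD86 did not pass (0.26 ± 0.13, adjusted p = 0.1, limma). Of the identity markers SPI1, the gene of the factor PU.1, fell by 0.42 and CD68 rose (0.27 ± 0.07), and 7 of the 12 measured fell while 2 rose.

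Cytokines, chemokines and their receptors were lower in 17 of 33 cases (51.5%, against 30.4% of all genes) and higher in 9 (27.3%, against 25.6%). TNF was at 7.11, 7.15, 7.11 and 7.18 in EX527 and at 8.40, 8.36, 8.28 and 8.31 in control, 2.30-fold lower (adjusted p = 1.3e-09). Oncostatin M, OSM (-0.91 ± 0.07), and the chemokine receptor CXCR4 (-0.69 ± 0.07) fell, while CXCL8, the neutrophil attractant interleukin 8, at 13.81 to 14.08 in EX527 and 12.97 to 13.19 in control, rose (0.83 ± 0.07) together with IL1B (0.64 ± 0.06). The share of rises in this list was thus near that of all genes, and the share of falls was above it.

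Among 14 measured metalloproteinases and their inhibitors 5 rose (35.7%) and 3 fell (21.4%), against 25.6% and 30.4% of all genes. The collagenase MMP1 was at 10.07, 10.03, 10.03 and 9.82 in EX527 and at 8.70, 8.21, 8.23 and 8.35 in control, 3.06-fold higher, and MMP8, the neutrophil collagenase, was 2.29-fold higher. The gelatinase MMP9 was at 4.93, 4.96, 4.99 and 5.36 in EX527, where 1 array detected it, and at 5.88, 6.20, 6.25 and 6.31 in control, 2.14-fold lower. The undetected arrays lie at the background, which limits this fold. Immediate early genes of the AP-1 family gave FOSB (-0.89 ± 0.08) and JUNB (-0.74 ± 0.08) lower and JUN (0.67 ± 0.06) higher, within a list of 23 measured of which 10 fell and 6 rose.

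Several of the largest falls were of genes outside the groups above. COL22A1, a collagen of tissue junctions, was at 5.05, 5.51, 5.29 and 5.27 in EX527, detected on 3 arrays, and at 7.55, 7.64, 7.68 and 7.97 in control, 5.39-fold lower. RASL11A, a small GTPase-like protein, was 3.66-fold lower, the B-cell receptor subunit CD79A was 3.01-fold lower, the cofilin phosphatase SSH3 was 2.84-fold lower, PRDM8 was 2.78-fold lower and the cyclic AMP phosphodiesterase PDE4B was 2.66-fold lower (-1.41, with -0.57 on its other probe, undetected in EX527). On the rising side, VWA5A was at 8.63, 8.67, 8.79 and 8.71 in EX527 and at 6.26, 6.31, 6.17 and 6.43 in control, 5.30-fold higher (2.40 in log2 units), and its dimmer probe gave 1.34. The water channel AQP8, undetected in control, was at least 3.06-fold higher.

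Of the 5 sirtuins measured 1 rose and 1 fell. SIRT1, the target of the compound, was at 8.26, 8.35, 8.54 and 8.26 in EX527 and at 7.87, 7.78, 7.69 and 7.71 in control, 1.51-fold higher. SIRT4, of mitochondria, fell by 0.39, and SIRT2 (0.04 ± 0.06), SIRT5 (0.13 ± 0.07) and SIRT6 (-0.12 ± 0.10) did not pass, although SIRT5 has 2 other kept probes, which rose by 0.76 (detected on 4 EX527 and 0 control arrays) and by 0.31. The NAD-consuming ectoenzyme CD38 fell by 0.98, within a list of NAD genes of which 10 of 26 rose and 7 fell. Of 36 measured glycolysis and hypoxia genes 16 fell and 7 rose (25 and 7 with median scaling), the falls led by hexokinase 3, HK3 (-0.92 ± 0.10). HIF1A passed narrowly on its brightest probe (0.27 ± 0.10, adjusted p = 0.032). That probe lost the call without EX527 replicate 1, 2 or 3 or control replicate 2 or 4 (0.22 to 0.27, adjusted p = 0.055 to 0.097). The other kept probe of HIF1A rose by 0.53 without overlap (adjusted p = 0.0029, limma).

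A direct test of EX527 against MC2494 showed where the compounds differed. Doses are not given for either, so these are differences between the treatments as applied. Of 9956 genes 6122 passed, which is 61.5% of them, with 28.7% higher and 32.8% lower in EX527. Over all kept probes 60.4% passed, 3819 higher (29%) and 4138 lower (31.4%), a split of 48% higher that became 64.8% (4794 of 7402) without scaling between arrays.

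Cell division genes were higher under EX527 than under MC2494. Of 40 kinetochore genes 37 were higher and 0 lower, with a median difference of 1.54, and of 46 replication genes 43 were higher and 1 lower, with a median of 0.86. MMP1 was at 9.82 to 10.07 in EX527, 5.11 to 5.35 in MC2494 and 8.21 to 8.70 in control, and exceeded MC2494 by 27.6-fold (4.78 ± 0.10, adjusted p = 1.3e-12), with 3 MC2494 arrays detecting it. CDCA3 was 5.74-fold and the cytidine deaminase APOBEC3B 5.41-fold higher in EX527 than in MC2494, although each was lower in EX527 than in control (-0.51 ± 0.08 and -0.42 ± 0.08). GPR183, a receptor for oxysterols, was 5.65-fold higher. CYP1A1, undetected in MC2494, was at least 6.03-fold higher, and FABP4, undetected there too, was at least 2.90-fold higher.

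Other genes stood far lower under EX527 than under MC2494. The fractalkine receptor CX3CR1 was at 6.10 to 6.48 in EX527, 9.54 to 9.79 in MC2494 and 6.87 to 7.11 in control, 9.91-fold lower than in MC2494. MFAP4, a matrix glycoprotein, was 8.63-fold lower, NUPR1 was 6.90-fold lower, and the potassium channel subunit KCNE1 was 5.42-fold lower. Of 36 interferon-stimulated genes 27 were lower and 2 higher, with a median of -0.56, and of 18 amino acid response regulators 11 were lower and 1 higher, with a median of -0.51. PPARGC1A (-1.77 ± 0.06) and OSCAR (-1.50 ± 0.05) were lower as well.

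Some of the largest changes from control differed little between the compounds. PLIN2 was 1.21-fold higher in EX527 than in MC2494 (0.27 ± 0.06, adjusted p = 0.00073), and ASNS was 1.14-fold higher (0.19 ± 0.06, adjusted p = 0.016). For CEP70 the difference was 0.13 ± 0.07 (adjusted p = 0.12) and for GDF15 it was -0.12 ± 0.08 (adjusted p = 0.25), which did not pass. CEP70 was detected on no EX527 array, so the background limits how far the compounds can be compared for it. ATF4 gave -0.09 ± 0.07 (adjusted p = 0.28).

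**Figure D5:**
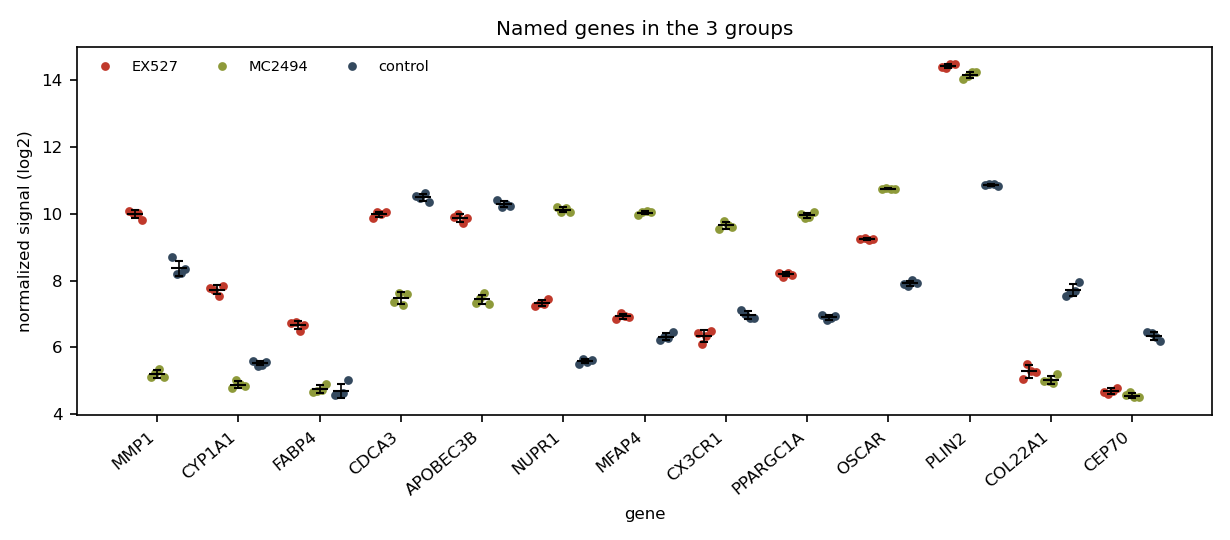
Normalized signal (log2, vertical axis) of 13 genes on each EX527 (red), MC2494 (olive) and control (blue-grey) array, with group means and SD as black bars. MMP1, CYP1A1 and FABP4 stand higher in EX527 than in MC2494, NUPR1, MFAP4 and CX3CR1 stand lower, and the EX527 and MC2494 arrays lie close together for PLIN2, COL22A1 and CEP70. CEP70 was detected on no EX527 array and COL22A1 on only part of them, so the background limits both of these comparisons.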

How the data were processed

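RNA from U937 cells was hybridised to single-colour Illumina bead arrays, 4 each for EX527, MC2494 and control. The deposited raw table holds, per its file headers, a bead intensity and a detection p-value for each of 24526 probes on each array, and its intensities still contain the background. A second table deposited by the authors holds log2 values whose sorted columns differ by at most 0.00096 between arrays, as after quantile normalization. The submitters' processing notes name limma without a version, and the background correction is not given in the sources used here.

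Raw intensities were background corrected, quantile normalized and put on the log2 scale with neqc (limma 3.58.1, R 4.3.3, offset 16). Probes with detection p under 0.05 on at least 4 of 12 arrays were kept, 13174 in all. Of all probes 21834 have 1 symbol in the platform annotation, 2692 have none and 0 have several, and 21 named probes have no RefSeq entry. The brightest kept probe stood for each of 9956 genes, of which 1579 had a choice. A linear model over all 12 arrays gave EX527 minus control and EX527 minus MC2494, with eBayes and Benjamini-Hochberg adjustment over all kept probes at 0.05. The fit was tested on simulated data. The median SD within groups was 0.109 on the log2 scale, and 4 arrays per group set the precision. Between 12231 and 13030 probes were detected per array. A gene detected on no array of one group is given as "at least N-fold", against the lowest detected signal of those arrays.

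Genes were named if among the 12 largest rises or falls with non-overlapping groups, the 8 largest differences from MC2494 in each direction, up to 4 most changed called members per direction of a list, the sirtuins, CDKN1A or a fixed set of regulators. Of the 215 genes named, 22 fall outside that rule and were chosen after their values were seen: TRIB3, PPP1R15A, CHAC1, CEBPB, JDP2, PHGDH, MTHFD2, SHMT2, GOT1, MTHFD1L, SLC3A2, AARS1, MARS1, NARS1, IARS1, CARS1, CPT1A, OAS1, ISG15, HLA-DRA, CIITA and CD74. The comparison and the gene lists were chosen with earlier results of these data known. Lists are described by counts and medians, with no test of a list. Replicate numbers did not pair the arrays: deviations of same-numbered EX527 and control arrays correlated at -0.045, 0.042, -0.006 and 0.095. Promoter sequences and gene spans come from RefSeq (GRCh38.p14). Alternatives covered background correction, scaling, probe filters, variance models, array weights, a replicate block, the authors' log2 values, and leaving out each array.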

Additional observations from a re-analysis of the deposited data

Results flagged for a closer look

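For each of the 215 named genes, and for mean raw signal and the number of detected probes, the 4 arrays of EX527 and the 4 of control were examined for an array far from its group, by the gap to its nearest neighbour over the group's range (Dixon's test for groups of 4). Of these 434 sets of 4 arrays 16 held one, each of them in a gene, where chance gives about 1 in 20. Values are normalized log2 signals.

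Among stress and metabolic genes, SESN2 was low on EX527 replicate 1 (6.39, the others at 6.57 to 6.59), and GCLM was low on EX527 replicate 4 (7.60, others 7.80 to 7.83) and on control replicate 1 (6.75, others 7.09 to 7.16). VEGFA was high on EX527 replicate 4 (9.71, others 9.49 to 9.52). GOT1 was low on control replicate 2 (10.85, others 10.87), MTHFD1 was high on control replicate 1 (8.79, others 8.69 to 8.71), and FABP4 was high on control replicate 4 (5.01, others 4.58 to 4.62), where it was not detected.

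Among division and growth genes, NOP16 was low on EX527 replicate 3 (9.40, others 9.68 to 9.72), BIRC5 was low on control replicate 1 (10.32, others 10.42 to 10.43), and TOP2A was high there (11.48, others 11.39 to 11.40). BIRC2 was high on control replicate 1 (9.20, others 9.05 to 9.06), and SETDB2 was low on control replicate 3 (9.73, others 9.86 to 9.88).

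Among the rest, MMP9 was high on EX527 replicate 4 (5.36, others 4.93 to 4.99), the only EX527 array of the 4 that detected it. LAMP2 was high on EX527 replicate 3 (12.31, others 12.16 to 12.18), TFEB was high on control replicate 4 (6.45, others 6.21 to 6.24), and AQP8 was low on control replicate 3 (4.81, others 5.07 to 5.09), undetected in control. In all 15 genes the EX527 and control arrays did not overlap, as in 51.6% of all genes, and for some of the 15 this was a condition of being named.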

How the results depend on the processing

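EX527 against control called 7160 probes, and the 24 other settings called between 5095 (replicates 1 and 2 alone) and 7536 (median scaling), all within 1.5 times. Leaving out 1 array gave 6637 to 6868 probes, 5164 to 5350 genes, and for EX527 against MC2494 7558 to 7708 probes. Of 205 named genes called, 201 to 204 were called without 1 array, and the mean raw signal difference lay between -58.8 and -34.6. The replicate block gave 7285 probes and 5641 genes and changed no named gene's call. Of the 205 genes, 194 kept call and direction in all settings that gave a test, and 11 lost the call in at least 1: ATF4, MTHFD1L, HARS1, ABHD5, TUBG1, PSMA4, CIITA, SIRT4, KCNE1, CD68 and HIF1A. The median over a gene's probes, which has no test, moved 17 of the 205 by more than the spread between arrays, among them LAMP2 (0.14), CD86 (0.65), WDHD1 (0.55) and SMC4 (0.79). With median scaling PSMA4 turned to -0.023 and CEBPB to -0.18 (adjusted p = 0.0063, limma), and the cause was not tested. Median scaling moved the median of all kept probes to -0.09, against -0.04, and the share of called probes that were higher to 37.7%, against 44.8%. The splits by replicates 1 and 2 against 3 and 4 were chosen after seeing the data. A block by chip or array position was not run, since the files give neither. Dim genes, detected on part of the arrays, have folds limited by the background.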

Other observations

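Of 18 measured BCL2 family members 6 were higher in EX527 (33.3%, against 25.6% of all genes) and 7 lower (38.9%, against 30.4%). PMAIP1, which encodes the death-promoting protein NOXA, was at 7.83, 8.02, 7.88 and 7.92 in EX527 and at 7.12, 6.83, 6.73 and 6.69 in control (1.07 ± 0.08). BCL2L11, the gene of BIM, fell by 0.80. Of 24 measured death receptors, caspases and their inhibitors 5 were higher (20.8%) and 10 lower (41.7%). The ligand TNFSF10, or TRAIL, fell by 1.06 and was detected on 3 of 4 EX527 arrays, while the inhibitor of apoptosis BIRC2 rose (0.99 ± 0.07). Of 23 measured p53 targets 9 were higher (39.1%) and 4 lower (17.4%).

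Of 9 measured S100 genes, which encode calcium-binding proteins, 3 were lower and 2 higher (median -0.05), shares near those of all genes. S100A9 fell by 0.83 and S100A8 by 0.73, while S100P rose (0.66 ± 0.05). Lysosome and proton pump genes were higher in 17 of 36 cases and lower in 5, with a median of 0.10 that became -0.00 with median scaling, where 9 were higher and 11 lower. LAMP2, a lysosomal membrane protein (0.64 ± 0.07 on its brightest probe, and 0.10 and 0.14 on 2 others that did not pass), and the protease CTSD (0.53 ± 0.07) rose, though TFEB, a master regulator of lysosome genes, fell by 0.48. The autophagy initiator RB1CC1 was at 9.98, 9.85, 10.07 and 9.94 in EX527 and at 8.71, 8.67, 8.67 and 8.68 in control (1.28 ± 0.06). Among histone and DNA methylation genes 15 of 37 fell and 7 rose, with SETDB2 (1.26 ± 0.08) and the Polycomb subunit SUZ12 (1.03 ± 0.06) higher and the methyltransferase DNMT3B (-0.60 ± 0.09) lower. In the NF-kappaB list 7 of 24 were higher (29.2%) and 9 lower (37.5%), against 25.6% and 30.4% of all genes. The kinase MAP3K8 (0.94 ± 0.09) and the prostaglandin synthase PTGS2 (0.83 ± 0.11) rose, and BCL3 (-0.66 ± 0.09) fell.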
